A study of Homo sapiens with 8 samples.

Results

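Interferon-stimulated genes are the antiviral programme that a cell switches on when interferon binds its receptors. The receptor-bound kinases JAK1 and TYK2 phosphorylate STAT2, which joins IRF9 in the factor ISGF3, and ISGF3 binds the interferon-stimulated response element (ISRE) in the promoters of these genes. Many epithelial and tumour cells keep part of the programme on at a low, tonic level without added interferon. The 36 genes described here were listed by symbol, and all 36 were found among the 57815 gene identifiers of each library. They were measured by RNA-seq of polyA-selected RNA in 8 libraries of ABC1 and HCC4006 cells.

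ABC1 and HCC4006 are established human lung adenocarcinoma lines that carry no mutation of KEAP1 or NRF2. Each line was grown in low-glucose DMEM with serum and harvested 16 h after addition of 100 μM diethyl maleate (DEM) or of its vehicle DMSO. DEM is an electrophile that blocks KEAP1 and so lets the transcription factor NRF2 accumulate. Each of the 4 groups (ABC1 vehicle, ABC1 DEM, HCC4006 vehicle and HCC4006 DEM) held 2 libraries, described in the methods as biological duplicates and numbered 0 and 1 in the labels. A difference between ABC1 and HCC4006 is one between these single lines. The labels name no interferon treatment for any group. In bulk RNA, fewer cells expressing a gene and less of its RNA per cell cannot be told apart.

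The deposited values are FPKM, fragments scaled to transcript length and to the number of mapped fragments, so levels can be set side by side between genes. The FPKM sums of the libraries lay within 1.18-fold of each other, and 12515 to 13573 genes per library reached 1 FPKM. The depth is known only from the authors' deposited base means, which summed to 13786938 in ABC1 and 13957320 in HCC4006. The treatment took hold in both lines, where 7 of 7 canonical NRF2 targets rose. NQO1, a quinone reductase, read 56.0 and 82.8 FPKM with vehicle and 193 and 221 with DEM in ABC1 (log2 change 1.59, SE 0.21, adjusted p = 0.0422), and 273 and 269 against 480 and 525 in HCC4006 (log2 change 0.89, SE 0.07, adjusted p = 0.00179). GCLM, a subunit of the glutathione-synthesis enzyme, read 15.2 and 17.6 against 56.8 and 48.0 in ABC1 (log2 change 1.61, SE 0.15, adjusted p = 0.0221) and 8.13 and 7.72 against 37.2 and 39.8 in HCC4006 (log2 change 2.15, SE 0.09, adjusted p = 0.000426). All 6 epithelial markers were at 10.4 FPKM or more in each library, whereas no immune marker exceeded 0.671 FPKM in any library. Of the fibroblast and endothelial markers matched, COL1A1 read between 3.58 and 7.64 FPKM. COL1A2 reached 1.48 in HCC4006 and was listed at 0 in ABC1, and DCN and CDH5 stayed at 0.161 or less.

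The promoters of IFIT1, IFIT3, ISG15 and OAS3 are shown because these genes carry the main results below and each window holds 2 matches to the ISRE core. Each window runs from 250 bases before to 50 bases after the gene's start, on the plus strand of RefSeq GRCh38.p14, at chr10:89392373-89392672, chr10:89327747-89328046, chr1:1013247-1013546 and chr12:112938224-112938523. Capitals mark every match to GAAANNGAAA or, for the other strand, TTTCNNTTTC.
IFIT1: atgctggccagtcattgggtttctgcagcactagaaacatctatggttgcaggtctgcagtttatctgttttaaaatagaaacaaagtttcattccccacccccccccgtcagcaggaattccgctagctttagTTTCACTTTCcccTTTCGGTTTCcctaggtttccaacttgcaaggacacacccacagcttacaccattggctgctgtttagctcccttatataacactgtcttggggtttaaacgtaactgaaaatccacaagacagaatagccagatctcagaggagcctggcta
IFIT3: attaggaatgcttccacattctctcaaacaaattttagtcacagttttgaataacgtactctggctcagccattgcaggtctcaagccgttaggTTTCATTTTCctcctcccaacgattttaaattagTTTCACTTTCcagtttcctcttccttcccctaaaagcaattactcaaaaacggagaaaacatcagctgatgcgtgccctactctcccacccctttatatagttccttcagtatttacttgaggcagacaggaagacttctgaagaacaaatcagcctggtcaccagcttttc
ISG15: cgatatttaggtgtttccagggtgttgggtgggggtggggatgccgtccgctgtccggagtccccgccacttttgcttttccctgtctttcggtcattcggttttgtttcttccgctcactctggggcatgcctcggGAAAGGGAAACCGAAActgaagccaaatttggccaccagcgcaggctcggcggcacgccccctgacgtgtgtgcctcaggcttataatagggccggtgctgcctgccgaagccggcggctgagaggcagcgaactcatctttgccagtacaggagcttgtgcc
OAS3: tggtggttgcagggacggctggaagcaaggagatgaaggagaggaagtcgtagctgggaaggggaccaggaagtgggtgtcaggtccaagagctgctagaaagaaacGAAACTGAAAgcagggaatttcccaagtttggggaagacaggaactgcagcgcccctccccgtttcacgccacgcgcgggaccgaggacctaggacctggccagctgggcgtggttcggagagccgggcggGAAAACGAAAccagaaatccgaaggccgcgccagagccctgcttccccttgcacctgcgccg
In ISG15 the 2 matches share bases and form 1 run of capitals, 113 and 107 bases before the start, whereas in OAS3 they stood 143 and 12 bases before it. RefSeq gave a window for 30 of the 36 genes; it gave none for IFIT2, OAS2, OASL, IFITM2, USP18 and IRF7. The ISRE core was present in 22 of these 30 windows (73.3%) and in 996 of the 27305 windows of all genes (3.65%). The interferon-gamma response motif GAS, searched as TTCNNNGAA, was found in 9 of the 30 (30%) against 7.88% of all windows. The NRF2 motif ARE, searched as TGACNNNGC or GCNNNGTCA on the other strand, was found in 8 of the 30 (26.7%) against 13.6%. A match describes the letters of the window and does not mark a bound site.

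The first question was how high the programme stood in each line without DEM. HCC4006 cells with vehicle carried a high tonic level of most of these genes, whereas ABC1 cells carried a low one. All 36 genes together summed to 972 and 995 FPKM in the HCC4006 vehicle libraries and to 321 and 341 in those of ABC1. The median gene stood at 16.7 and 17.7 FPKM in HCC4006 and at 2.97 and 3.22 in ABC1. Of the 36 genes, 33 had both HCC4006 vehicle libraries above both ABC1 vehicle libraries and 3 (STAT2, IFITM1 and USP18) had both below. Among all genes above 0 FPKM, such separation was found upward in 35.2% and downward in 28.1%.

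In the limma fit, 35 of the 36 genes reached the minimum mean of 1 FPKM over these libraries, 29 were called higher in HCC4006 and 2 lower at an adjusted p under 0.05. Of all genes tested, 37.3% were called higher and 30.4% lower. The minimum was reached by 8 of the 35 genes only through HCC4006 (MX1, OAS1, OAS2, OASL, SAMD9, IFI27, IFI44 and IFI44L), so those had to differ, and their values are given without a test. Among the 27 that also reached it in the ABC1 vehicle libraries, 21 were called higher, 2 lower and 4 were not called (IFIT5, USP18, HERC5 and IFI35). The median log2 difference of these 27 was 1.44, beside 0.07 over all genes tested. Without either HCC4006 vehicle library 24 genes were called higher, and without ABC1 vehicle 0 or 1 the count was 28 or 29. XAF1, a pro-apoptotic gene, stayed under the minimum, at 0.897 and 2.08 FPKM in HCC4006 and listed at 0 in ABC1.

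**Figure D1:**
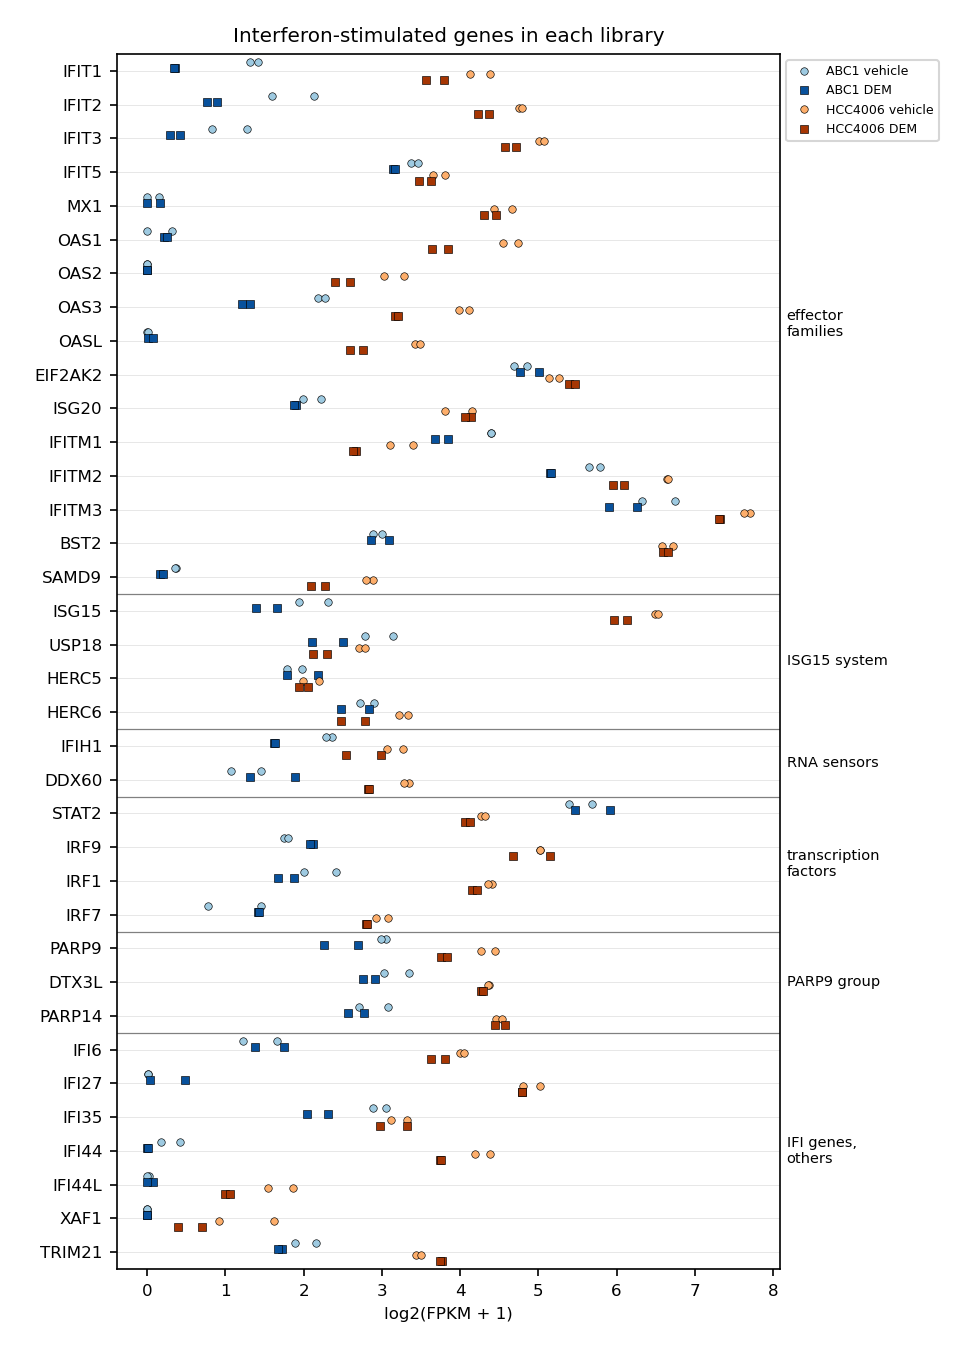
Level of each of the 36 interferon-stimulated genes in each library, on a log2(FPKM + 1) scale, grouped by role; each point is 1 library. In HCC4006 the vehicle points of 33 genes lie to the right of both ABC1 vehicle points, and in ABC1 several genes, such as OAS2 and XAF1, sit at 0.

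Several genes stood close to 0 in ABC1. IFI27, a small membrane protein used as a marker of interferon exposure, read 0.00557 and 0.00613 FPKM in the ABC1 vehicle libraries and 31.4 and 27.0 in those of HCC4006 (log2 difference of FPKM + 1, 4.90). MX1, a GTPase that blocks viral replication, read 0.106 and 0 against 20.6 and 24.4 (4.48). IFI44 read 0.340 and 0.132 against 17.3 and 19.9 (3.99). These 3 genes were thus close to 0 in ABC1 and far above it in HCC4006.

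The oligoadenylate synthetases, which sense double-stranded RNA and activate RNase L, followed the same order. OAS1 read 0.25 and 0 FPKM in ABC1 and 22.4 and 25.7 in HCC4006 (4.48). OAS2 was listed at 0 in both ABC1 libraries and read 8.72 and 7.14 in HCC4006. OASL, a catalytically inactive relative, read 0 and 0.00382 against 9.69 and 10.2 (3.45). OAS3 differed from its neighbours in ABC1, where it was expressed, at 3.55 and 3.83 FPKM beside 14.8 and 16.4 in HCC4006. OAS1, OAS3 and OAS2 lie side by side within chr12:113343661-113449528 (GRCh37).

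The IFIT genes, whose products bind foreign RNA and block its translation, lie together within chr10:91043451-91181362 (GRCh37). IFIT1 read 1.5 and 1.67 FPKM in ABC1 and 16.5 and 19.8 in HCC4006 (2.89, SE 0.14, adjusted p = 4.91e-05). IFIT2 read 3.37 and 2.03 against 26.1 and 26.7 (2.91, SE 0.19, adjusted p = 0.000146). IFIT3 read 1.43 and 0.778 against 31.1 and 32.8 (3.99, SE 0.18, adjusted p = 4.07e-05). IFIT5, the remaining IFIT gene of the list, stood apart, at 9.32 and 9.99 in ABC1 and 13 and 11.6 in HCC4006, and its difference was not called (0.32, SE 0.11, adjusted p = 0.0525).

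ISG15, the ubiquitin-like modifier of this system, read 2.85 and 3.96 FPKM in ABC1 and 88.7 and 91.6 in HCC4006 (4.38, SE 0.15, adjusted p = 1.9e-05). BST2, which tethers budding virus to the membrane, read 6.99 and 6.38 against 94.5 and 104 (3.71, SE 0.10, adjusted p = 1.25e-05). Both were high in HCC4006 and low in ABC1 with no overlap. USP18, the protease that removes ISG15 from proteins, did not share this order, with 5.92 and 7.86 in ABC1 and 5.54 and 5.92 in HCC4006 (-0.22, SE 0.16, adjusted p = 0.258). HERC5, the ligase that attaches ISG15, read 2.94 and 2.46 against 2.97 and 3.59 (0.21, SE 0.15, adjusted p = 0.258).

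STAT2 and IRF9, components of ISGF3, went in opposite directions. IRF9 read 2.37 and 2.48 FPKM in ABC1 and 31.6 and 31.4 in HCC4006 (3.25, SE 0.10, adjusted p = 1.62e-05). STAT2 read 50.6 and 40.8 against 18.3 and 19.0, and was lower in HCC4006 (-1.24, SE 0.13, adjusted p = 0.000666). The authors' deposited base mean of IRF9, 6.19 in ABC1 and 15.5 in HCC4006, was low beside its FPKM, and the cause was not tested. IFITM1, one of the membrane proteins that hinder virus entry, was the other gene lower in HCC4006, at 20.0 and 20.1 FPKM in ABC1 and 7.60 and 9.55 in HCC4006 (-1.14, SE 0.13, adjusted p = 0.000997).

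IFITM3 and IFITM2 topped the order in both lines. IFITM3 read 78.8 and 107 FPKM in ABC1 and 208 and 197 in HCC4006, and IFITM2 read 49.2 and 54.0 against 99.0 and 100.0. In ABC1 these were followed by STAT2, EIF2AK2, IFITM1 and IFIT5, and IFITM2 and STAT2 overlapped. In HCC4006 they were followed by BST2, ISG15, EIF2AK2 and IFIT3, and IFITM2 and BST2 overlapped, as did IFIT3 and IRF9. EIF2AK2, the kinase PKR that stops translation on sensing double-stranded RNA, differed less, at 28.0 and 24.8 against 34.3 and 37.6 (0.43, SE 0.11, adjusted p = 0.0168). The IFITM genes are neighbours of closely similar sequence within chr11:303655-329475 (GRCh37), and reads shared between them may have been split, which leaves their separate levels uncertain.

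The second question was how the programme responded to DEM. In HCC4006 it was lowered: 17 of the 36 genes fell and none rose. Among all 13542 genes tested in this line, 10.7% were called lower and 8.45% higher. The fallen genes were 11 of the 16 effectors (IFIT1, IFIT2, IFIT3, OAS1, OAS2, OAS3, OASL, IFITM1, IFITM2, IFITM3 and SAMD9), 3 of the 4 genes of the ISG15 system (ISG15, USP18 and HERC6), the helicase DDX60, PARP9 and IFI44. None of the 4 transcription factors was called. At an unadjusted p under 0.05 there were 19 lower and 2 higher (EIF2AK2 and TRIM21), beside 4985 of all 13542 genes in either direction. The 35 genes tested had a median log2 change of -0.40, between -0.90 and 0.29, beside a median of -0.03 over all genes, and 31 of them (88.6%) were negative beside 53% of all genes.

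The calls rest on 2 libraries per group. Leaving out HCC4006 vehicle 0, DEM 0, vehicle 1 or DEM 1 left 5, 3, 3 and 6 genes called lower, and OAS1, OAS3 and IFITM2 were called without any 1 of these. With no minimum on the FPKM none was called (24 of 36 at an unadjusted p under 0.05, limma), and a model of all 8 libraries called 11. In these 4 fits with a library left out, 29 to 33 genes had a negative change. Of the 35 genes tested, 26 had both DEM libraries below both vehicle libraries and 2 had both above, beside 35.3% of all genes below and 29.3% above. The keratin genes KRT7, KRT8 and KRT18 also fell in HCC4006 (log2 changes -0.51, -0.46 and -0.40) while EPCAM read 234 and 255 FPKM with vehicle and 237 and 272 with DEM. KRT19 and CDH1 (-0.11 and -0.14) were not called. The 6 epithelial markers summed to 4578 and 4393 FPKM with vehicle and to 3443 and 3487 with DEM, and their part in the result was not tested.

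**Figure D2:**
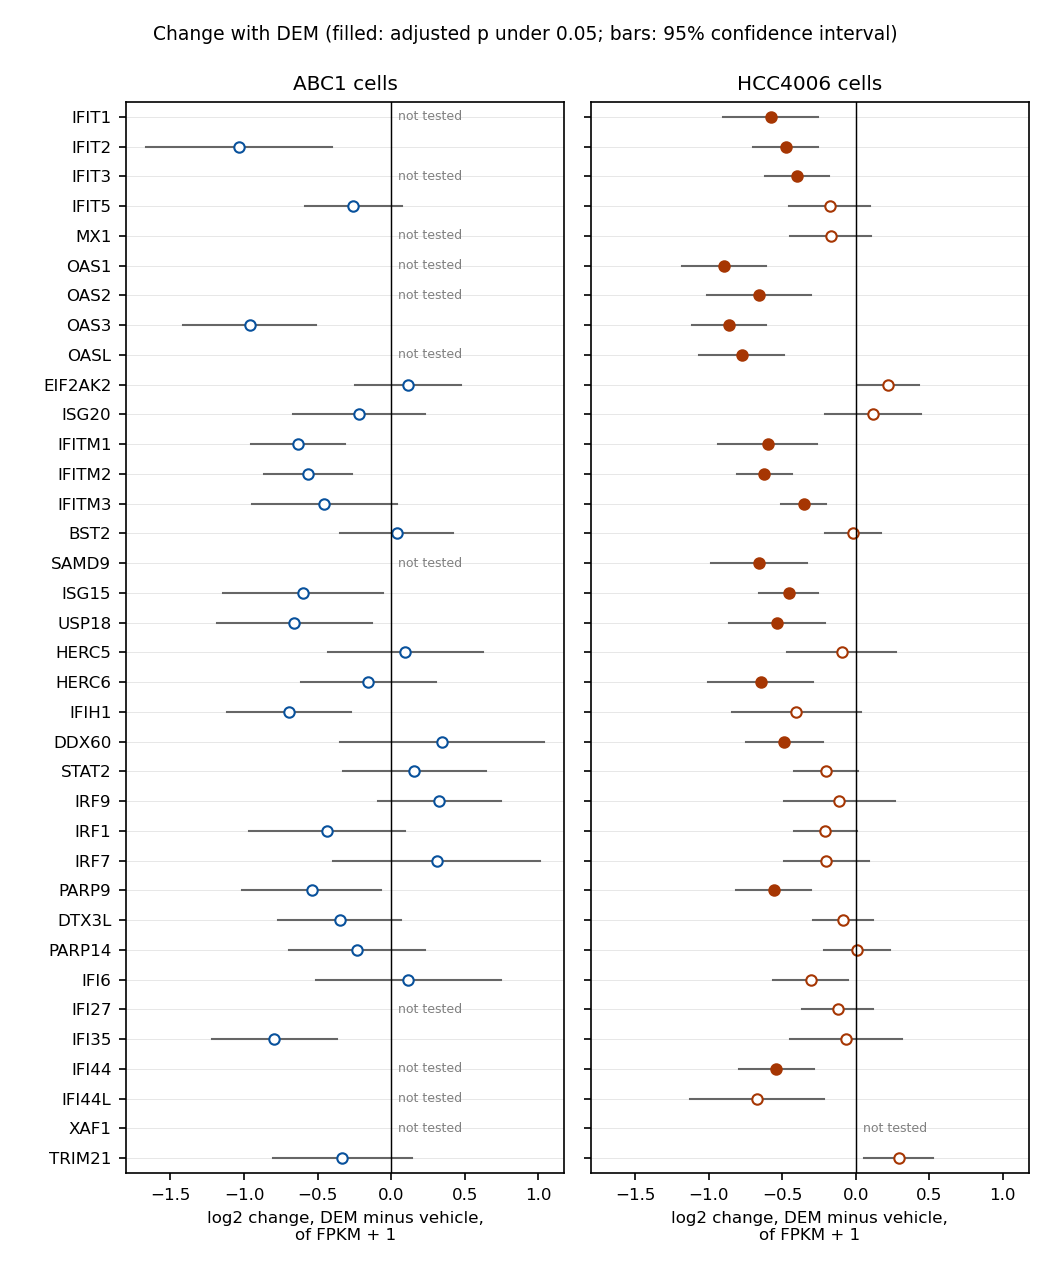
Log2 change of FPKM + 1 with DEM for each gene in each line, with its 95% confidence interval; filled points passed an adjusted p under 0.05. In HCC4006 17 filled points lie left of 0, and in ABC1, where 25 genes could be tested, no point is filled although 17 lie left of 0.

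Of the genes called in this fit, OAS1, OAS3 and OASL had the largest log2 changes. OAS1 read 22.4 and 25.7 FPKM with vehicle and 11.5 and 13.4 with DEM, a fall of 48.2% (log2 change -0.90, SE 0.12, adjusted p = 0.00764). OAS3 read 14.8 and 16.4 against 8.02 and 8.22 (-0.86, SE 0.10, adjusted p = 0.00601). Their DEM libraries lay well below the vehicle libraries. OASL read 9.69 and 10.2 against 5.03 and 5.79 (-0.77, SE 0.12, adjusted p = 0.0116), and OAS2 read 8.72 and 7.14 against 5.01 and 4.30 (-0.66, SE 0.14, adjusted p = 0.0303). The whole OAS family therefore fell by between 41.3% and 48.2% in mean FPKM.

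The genes of the membrane-bound IFITM proteins fell too. IFITM2 read 99.0 and 100.0 FPKM with vehicle and 61.3 and 67.4 with DEM (-0.62, SE 0.08, adjusted p = 0.00634). IFITM1 read 7.60 and 9.55 against 5.37 and 5.21 (-0.60, SE 0.14, adjusted p = 0.0347). IFITM3, the most abundant of the 36 genes, read 208 and 197 against 159 and 157 (-0.35, SE 0.06, adjusted p = 0.0174). None of the 3 overlapped between the groups, but shared reads may link them. BST2, by contrast, stayed at 95.7 and 100 FPKM with DEM, where the vehicle libraries read 94.5 and 104 (-0.02, 95% confidence interval -0.21 to 0.17, adjusted p = 0.873).

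Among the listed IFIT genes the 3 with a large difference between the lines fell. IFIT1 read 16.5 and 19.8 FPKM with vehicle and 10.8 and 12.9 with DEM (-0.58, SE 0.13, adjusted p = 0.0341). IFIT2 read 26.1 and 26.7 against 17.8 and 19.6 (-0.48, SE 0.09, adjusted p = 0.021), and IFIT3 read 31.1 and 32.8 against 22.8 and 25.2 (-0.40, SE 0.09, adjusted p = 0.0317). The falls in mean FPKM were 34.9%, 29% and 24.9%. IFIT5 was barely separated, at 13 and 11.6 against 10.1 and 11.4, and was not called (-0.18, SE 0.11, adjusted p = 0.303).

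SAMD9, an antiviral factor that restricts translation, read 6.38 and 5.95 FPKM with vehicle and 3.26 and 3.85 with DEM (-0.66, SE 0.13, adjusted p = 0.0253). MX1, likewise near 0 in ABC1, read 20.6 and 24.4 against 18.7 and 20.9 and was not called (-0.17, SE 0.11, adjusted p = 0.323). The MX1 libraries overlapped, whereas those of SAMD9 did not. EIF2AK2 lay on the other side of 0, with 34.3 and 37.6 against 41.0 and 43.1 (0.22, SE 0.08, adjusted p = 0.116), and the exonuclease ISG20 overlapped at 16.9 and 13 against 16.6 and 15.7.

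In the ISG15 system the modifier, its protease and a ligase relative fell together. ISG15 read 88.7 and 91.6 FPKM with vehicle and 61.8 and 69.4 with DEM (-0.46, SE 0.08, adjusted p = 0.0179). USP18 read 5.54 and 5.92 against 3.36 and 3.93 (-0.54, SE 0.13, adjusted p = 0.0421). HERC6 read 8.33 and 9.09 against 5.92 and 4.55 (-0.65, SE 0.15, adjusted p = 0.0328). No library of the 3 genes overlapped between the groups. HERC5, at 2.97 and 3.59 against 2.85 and 3.15, overlapped. USP41, a near copy of USP18 that could take its reads, did not exceed 0.087 FPKM in any library.

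Of the RNA sensors, the helicase DDX60 read 9.18 and 8.75 FPKM with vehicle and 6.08 and 6.14 with DEM (-0.49, SE 0.11, adjusted p = 0.0305). IFIH1, which encodes the sensor MDA5, read 7.35 and 8.67 against 4.81 and 6.94 (-0.40, SE 0.18, adjusted p = 0.162); its DEM libraries were lower but spread widely. PARP9, an ADP-ribosyltransferase that works with the ligase DTX3L in the interferon response, read 18.2 and 20.8 against 12.5 and 13.3 (-0.56, SE 0.10, adjusted p = 0.0202). DTX3L itself read 19.7 and 19.6 against 18.3 and 18.5 (-0.09, SE 0.08, adjusted p = 0.489), and PARP14 overlapped. PARP9 and DTX3L lie on opposite strands and overlap at chr3:122283185-122283424 (GRCh37); whether their reads were counted by strand is not given in the sources used here. IFI44, of unsettled function, read 17.3 and 19.9 against 12.4 and 12.5 (-0.54, SE 0.10, adjusted p = 0.0214).

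The 4 transcription factors had log2 changes between -0.21 and -0.11 in HCC4006. STAT2 read 18.3 and 19.0 FPKM with vehicle and 15.7 and 16.5 with DEM (-0.20, SE 0.09, adjusted p = 0.157), a small difference without overlap. IRF9 read 31.6 and 31.4 against 34.3 and 24.7, so its DEM libraries lay on both sides of vehicle. IRF1 and IRF7 had adjusted p-values of 0.147 and 0.274. The remaining genes not called were IFI6 (-0.31, adjusted p = 0.0903), IFI27 (-0.12), IFI35 (-0.07), TRIM21 (0.29, adjusted p = 0.086) and IFI44L, which read 1.92 and 2.63 against 0.999 and 1.09 (-0.67, SE 0.19, adjusted p = 0.0561). XAF1, under the minimum, read 0.897 and 2.08 against 0.633 and 0.317. The ISRE core was present in 9 of the 12 promoter windows of genes that fell and in 13 of the 18 windows of the others.

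**Figure D3:**
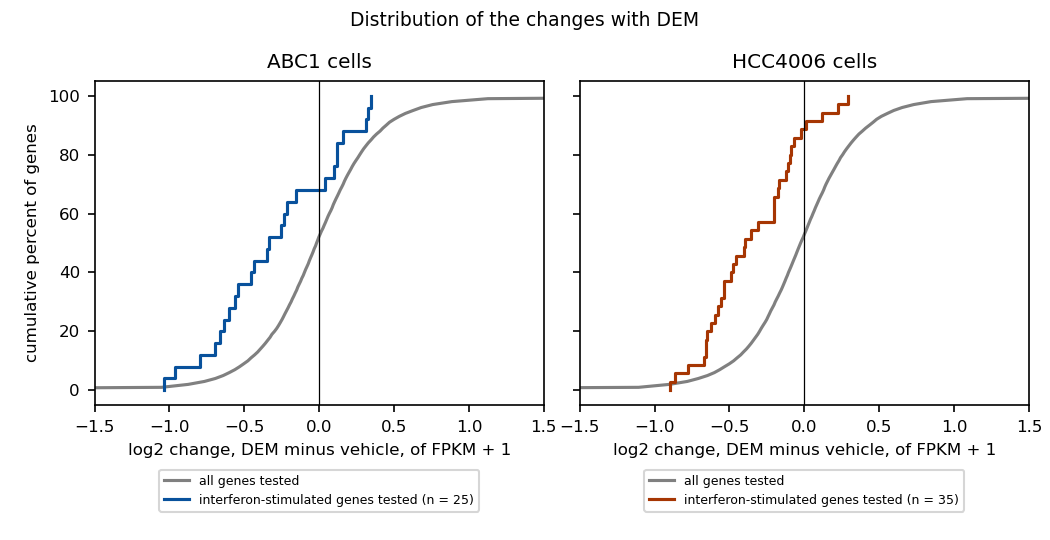
Cumulative share of genes (%) by log2 change of FPKM + 1 with DEM in each line, for the tested interferon-stimulated genes and for all genes tested. The curve of the interferon-stimulated genes lies left of the grey curve in both lines, with medians of -0.33 in ABC1 and -0.40 in HCC4006 against -0.02 and -0.03.

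In ABC1 no gene of the 36 was called with DEM. In this line 25 genes reached the minimum, and 17 were negative and 8 positive (68% negative, beside 52.3% of all genes), with a median of -0.33 and a range of -1.04 to 0.35 beside a median of -0.02 over all genes. At an unadjusted p under 0.05 in limma, 9 were lower and none higher, beside 2771 of all 12635 genes in either direction. Among these 9, IFIT2 reached the minimum only through its vehicle libraries, and its change is the low end of that range. The test called 0.435% of all genes lower and 0.768% higher in this line, and the smallest log2 change it called had a size of 0.80. The median standard error of a gene was 0.17 in ABC1 and 0.12 in HCC4006. Of the 25 genes, 15 had both DEM libraries below both vehicle libraries and 1 (IRF9) had both above, beside 28.2% of all genes below and 25.5% above. A model of all 8 libraries, which takes its spread from both lines, called 7 lower (IFI35, IFIH1, IFIT2, IFITM1, IFITM2, ISG15 and OAS3). IFIT2 is among these 7 and among the 15, although the minimum selects on its difference.

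The ABC1 genes with the lowest values were these. IFIT2 read 3.37 and 2.03 FPKM with vehicle and 0.85 and 0.705 with DEM (log2 change -1.04). It reached the minimum only through the vehicle libraries, so it is given without a test. OAS3 read 3.55 and 3.83 against 1.32 and 1.49 (-0.96, SE 0.18, adjusted p = 0.0703). IFIT2 and OAS3 were separated with no overlap, by 71.2% and 61.9% in mean FPKM, but OAS3 did not pass the adjusted threshold. IFI35 and IFIH1, named here because their unadjusted p was under 0.05, read 7.27 and 6.42 against 3.97 and 3.11 (-0.79, SE 0.17, adjusted p = 0.0879) and 4.16 and 3.86 against 2.08 and 2.12 (-0.69, SE 0.17, adjusted p = 0.105).

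The IFITM genes had similar values in ABC1 and HCC4006. IFITM1 read 20.0 and 20.1 FPKM with vehicle and 13.3 and 11.9 with DEM in ABC1 (-0.63, SE 0.13, adjusted p = 0.0789), beside a log2 change of -0.60 in HCC4006. IFITM2 read 49.2 and 54.0 against 34.5 and 34.7 (-0.56, SE 0.12, adjusted p = 0.0859), beside -0.62. IFITM3 read 78.8 and 107 against 59.1 and 75.4 (-0.45, SE 0.20, adjusted p = 0.257), beside -0.35. All 3 genes were lower in both DEM libraries than in both vehicle libraries of ABC1. USP18 read 5.92 and 7.86 against 3.32 and 4.69 (-0.66, SE 0.21, adjusted p = 0.162), ISG15 read 2.85 and 3.96 against 2.17 and 1.62 (-0.60, SE 0.22, adjusted p = 0.195), and PARP9 read 7.29 and 6.92 against 5.48 and 3.79 (-0.54, SE 0.19, adjusted p = 0.185). These too were lower in both DEM libraries.

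IFIT1 and IFIT3 missed the minimum in ABC1 because their DEM libraries were low. IFIT1 read 1.5 and 1.67 FPKM with vehicle and 0.278 and 0.269 with DEM, and IFIT3 read 1.43 and 0.778 against 0.341 and 0.229. No test is given for them, since a minimum that they pass only through the vehicle libraries would select on this difference. STAT2, EIF2AK2 and BST2 overlapped between the groups in ABC1. STAT2 read 50.6 and 40.8 against 59.6 and 43.3, EIF2AK2 read 28.0 and 24.8 against 26.2 and 31.3, and BST2 read 6.99 and 6.38 against 6.30 and 7.52. IFIT5 was separated but not called, at 9.32 and 9.99 against 7.84 and 7.98 (-0.26, SE 0.13, adjusted p = 0.32). KRT7, KRT8, KRT18 and KRT19 had log2 changes of -1.02, -0.54, -0.65 and -0.37 in ABC1, whereas EPCAM and CDH1 were at -0.004 and -0.02. None of the 6 was called. These 6 epithelial markers summed to 4974 and 5825 FPKM with vehicle and to 3666 and 4085 with DEM, a sum that follows the abundant KRT8 and KRT18. Their part in these values was not tested.

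Set side by side, 25 genes were tested in both lines, of which 14 were negative in both and 1 was positive in both (EIF2AK2). A further 7 were positive in ABC1 and negative in HCC4006, and 3 the reverse. The sum of all 36 genes went from 321 and 341 FPKM to 263 and 268 in ABC1 and from 972 and 995 to 774 and 801 in HCC4006, so the mean sum with DEM was 19.9% lower in each line. Such a sum follows the most abundant genes. Mean IFITM3 and IFITM2 went from 92.8 and 51.6 FPKM to 67.2 and 34.6 in ABC1, and from 202 and 99.5 to 158 and 64.4 in HCC4006. By contrast, 8 of the 25 genes tested in ABC1 and 4 of the 35 in HCC4006 were positive. The test of the difference in response between the lines called none of the 34 genes it covered, beside 0.329% of all genes called lower and 0.307% higher. At an unadjusted p under 0.05 it had 5 genes with a lower value in HCC4006 (OAS1, OAS2, OASL, SAMD9 and DDX60) and 2 with a higher one (IFI35 and TRIM21). Over all genes, 2068 of 13682 passed that unadjusted p in either direction. The largest difference among the 34 genes was that of OAS1 (-0.97), which is given without a test. OAS1, OAS2, OASL and SAMD9 were at 0.292 FPKM or less in the ABC1 vehicle libraries and reached the minimum only through HCC4006. A fall could hardly show in ABC1 at these levels, so their differences largely restate the falls in HCC4006. The calls found in HCC4006 alone are thus not shown to be particular to that line.

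The genes upstream of the programme were read from lists of ligands, receptors, signalling proteins and sensors. The interferon genes themselves were at or near 0. None of the 9 ligands reached the minimum in either line, and the highest value of any ligand in any library was 0.4 FPKM (IFNL1). IFNB1, the interferon made first by infected epithelium, was listed at 0 in all 4 ABC1 libraries and read 0.190 and 0 with vehicle and 0 and 0.0903 with DEM in HCC4006. IFNL1, an interferon of epithelial surfaces, read 0.0927 and 0.4 against 0.194 and 0.0856 in HCC4006. At these levels no change in a ligand was detectable.

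Of the 6 receptor genes, 1 fell with DEM in HCC4006, beside 10.7% of all genes called lower, and none was called in ABC1, where none had an unadjusted p under 0.05 either. IFNAR2, the signalling chain of the type I interferon receptor, read 11.4 and 8.73 FPKM with vehicle and 3.97 and 5.32 with DEM in HCC4006, a fall of 53.7% (-0.97, SE 0.18, adjusted p = 0.019). In ABC1 it read 3.42 and 3.48 against 3.13 and 3.39 (-0.07, SE 0.16, adjusted p = 0.847). The difference between the lines was not called (-0.90, SE 0.23, adjusted p = 0.14), and the call in HCC4006 was lost without vehicle 0 or DEM 0. IFNAR1, its partner chain, read 14.9 and 16.6 against 13.9 and 15.3 in HCC4006 (-0.10, SE 0.10, adjusted p = 0.507) and 13.7 and 12.4 against 13.1 and 11.4 in ABC1. With vehicle, 3 of the 6 receptor genes were higher in HCC4006 (IFNAR2, IFNGR2 and IL10RB), beside 37.3% of all genes, with IFNAR2 at 1.30 (SE 0.15, adjusted p = 0.00103).

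None of the 9 signalling genes was called with DEM in either line (2 in ABC1 and 1 in HCC4006 at an unadjusted p under 0.05, limma). Over all genes, 2771 of 12635 in ABC1 and 4985 of 13542 in HCC4006 passed that unadjusted p. JAK1 read 10.3 and 9.55 against 13.4 and 14.2 in ABC1 (0.43, SE 0.13, adjusted p = 0.145) and 21.4 and 21.2 against 23.1 and 24.2 in HCC4006. TYK2 overlapped in both lines, at 36.7 and 40.0 against 40.2 and 38.2 in ABC1 and 57.4 and 40.0 against 51.3 and 49.4 in HCC4006. With vehicle, 4 of the 9 were called higher in HCC4006 and 3 lower, beside 37.3% and 30.4% of all genes. Among the higher were JAK2, which reached the minimum only through HCC4006, STAT3 and JAK1. The lower were PIAS1, PTPN2 and SOCS1, which restrain the pathway. SOCS3, which also restrains it, was not called (0.02, SE 0.17, adjusted p = 0.922).

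**Figure D4:**
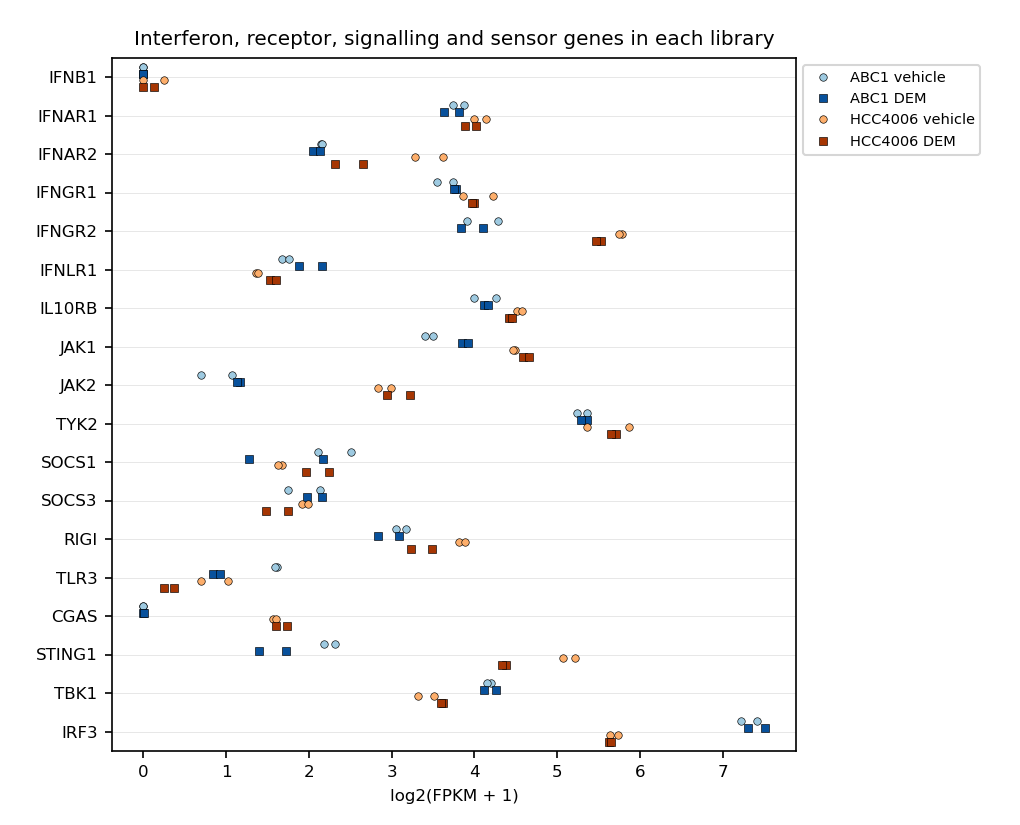
Level of the interferon gene IFNB1 and of receptor, signalling and sensor genes in each library on a log2(FPKM + 1) scale; each point is 1 library. IFNB1 lies at or near 0 in all 8 libraries, whereas the DEM points of IFNAR2, RIGI and STING1 in HCC4006 lie left of the vehicle points.

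Of the 14 nucleic-acid sensing genes matched, 12 were tested in HCC4006 and 2 of them fell with DEM, beside 10.7% of all genes called lower, whereas none was called in ABC1 (3 at an unadjusted p under 0.05, all lower, limma). STING1, the adaptor that relays the DNA signal of CGAS, read 36 and 32.5 FPKM with vehicle and 19.8 and 19.2 with DEM (-0.78, SE 0.09, adjusted p = 0.00544). In ABC1 it read 3.53 and 4 against 2.31 and 1.63 (-0.69, SE 0.20, adjusted p = 0.139). RIGI, the sensor of viral RNA ends, read 13 and 13.8 against 8.38 and 10.2 in HCC4006 (-0.49, SE 0.12, adjusted p = 0.0428) and 7.28 and 8 against 7.53 and 6.12 in ABC1. With vehicle, 5 of the 13 sensing genes tested were higher in HCC4006 (STING1 at 2.89, TICAM1 at 2.18, CGAS, TREX1 and RIGI) and 4 were lower (IRF3 at -1.63, TBK1, TLR3 and SAMHD1), beside 37.3% and 30.4% of all genes. CGAS reached the minimum only through HCC4006: it was at 0.00368 FPKM or less in every ABC1 library and at 1.96 and 2.04 in the HCC4006 vehicle libraries. TLR3 reached it only through ABC1, at 2.07 and 2.01 FPKM with vehicle beside 1.03 and 0.618 in HCC4006. Both are in the counts above, although the minimum selects on their difference. TLR3 was also 1 of the 3 genes in ABC1 at an unadjusted p under 0.05 with DEM, where it reached the minimum only through vehicle. These 3 stand among 11 sensing genes tested in ABC1, where 2771 of all 12635 genes passed that unadjusted p.

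A list of 32 further interferon-stimulated genes was read in the same way. In HCC4006, 10 of the 27 tested fell and none rose, beside 10.7% of all genes called lower and 8.45% higher. Their median log2 change was -0.28 beside -0.03 over all genes. At an unadjusted p under 0.05 in limma, 12 were lower and 2 higher, beside 4985 of all 13542 genes in either direction. MX2, a GTPase related to MX1, read 18.3 and 19.1 FPKM with vehicle and 6.67 and 8.09 with DEM (-1.24, SE 0.12, adjusted p = 0.00331), beside the overlapping libraries of MX1. UBA7, the enzyme that activates ISG15, read 13.4 and 12.4 against 5.08 and 5.85 (-1.11, SE 0.12, adjusted p = 0.00433); it acts on ISG15 before HERC5 does. GBP2, a guanylate-binding protein, read 11.6 and 10.0 against 4.44 and 6.78 (-0.86, SE 0.19, adjusted p = 0.0311), and TRIM14 read 27.6 and 23.4 against 15 and 14.6 (-0.74, SE 0.11, adjusted p = 0.00994). In ABC1 none of the 19 tested was called, 18 were negative beside 52.3% of all genes, and the median was -0.44 beside -0.02. In that line 10 were lower at an unadjusted p under 0.05 in limma, beside 2771 of all 12635 genes in either direction.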

How the data were processed

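The authors prepared strand-specific libraries from polyA-selected RNA of the 8 samples, aligned paired-end reads to hg19 and deposited an FPKM value for each gene identifier in each library. The paper's methods name TopHat and Cufflinks for these steps, whereas the submitters' processing notes name STAR 2.5.3a, HTSeq, Cuffnorm and DESeq2; which of these made the FPKM values is not settled here. The authors' deposited tables of their own comparisons hold a base mean per gene, a signal of scaled counts averaged over a line's libraries, which was used only for depth; their fold change and p columns were not used. Symbols were taken from a GENCODE annotation of GRCh37 by gene identifier, and positions of genes are those of that build, whereas promoter windows are RefSeq GRCh38.p14 and were not lifted over. Where a gene had several windows, the one listed first was used.

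FPKM values were compared on the log2(FPKM + 1) scale with limma 3.58.1 in R 4.3.3, with empirical Bayes moderation and a mean-variance trend, keeping the genes whose mean over the fitted libraries reached 1 FPKM. The pseudocount of 1 makes the log2 change of a low gene smaller than its ratio. P-values were adjusted by Benjamini-Hochberg over all genes tested, with a threshold of 0.05 and no minimum fold change. The comparisons were DEM against vehicle in each line, the difference between these responses (all 8 libraries), and HCC4006 against ABC1 with vehicle. An exact permutation test of 2 libraries against 2 cannot go below p = 0.333 and was not used. The procedure was tested on simulated data. Without counts per library, counting error was not estimated.

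The 36 genes, the other lists and the tests were chosen with earlier results of these data known. Values per library are given for genes called in any comparison, or the 12 with the largest log2 difference where more were called, and for the 6 most abundant in each line with vehicle; listed pathway genes are named where called, at most 4 per list and comparison, with a fixed few besides. Counts of 5 or fewer, and comparators named beside these, were named after their values were seen. Of the lists, 2 genes were not analysed here, and 1 is not reported here.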

Additional observations from a re-analysis of the deposited data

Results flagged for a closer look

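MX2, an interferon-stimulated GTPase that was not among the 36 genes, was looked at again because its response to DEM differed between the lines in the interaction test of limma. The log2 change in HCC4006 minus that in ABC1 was -1.238 (SE 0.18, adjusted p = 0.0416). It read 18.3 and 19.1 FPKM with vehicle and 6.67 and 8.09 with DEM in HCC4006, whereas no ABC1 library exceeded 0.00152 FPKM. MX2 reached the minimum only through HCC4006 and its change in ABC1 lies at 0, so the difference restates the fall in HCC4006. The call was lost in 10 of 13 alternatives, with adjusted p-values up to 0.19, among them each fit with 1 library left out, the pseudocount of 0.1 and the replicate block. None of the 36 genes passed the threshold (7 at an unadjusted p under 0.05, limma, beside 2068 of all 13682 genes).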

How the results depend on the processing

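Log2 changes were recomputed for genes called with DEM in HCC4006 and for genes with an unadjusted p under 0.05 in ABC1. So were the largest vehicle differences between the lines, those of STAT2 and IFITM1, and a few differences in response. Of 469 such values under the alternatives, none changed sign, 361 stayed on their side of the threshold, 94 lost and 14 gained a call. These genes were chosen by their results in the main fit, so a change of sign was unlikely. The recomputed vehicle differences all kept their call. Calls were lost only for DEM in HCC4006 and for the difference in response of MX2. The calls with DEM in HCC4006 were thus less steady than the pooled counts show. Over all 36 genes the count of negative changes did move, in HCC4006 from 31 to 30 with median-of-ratios scaling, to 32 of 36 with no minimum and to between 29 and 33 with 1 library left out, and in ABC1 from 17 to 21 of 34 with no minimum and to between 18 and 21 with 1 library left out. In HCC4006 the count of the 36 genes called lower with DEM was 17; it was 0 with no minimum FPKM, 11 in one model of all 8 libraries and 3 to 6 with 1 library left out, and the cause was not tested. The pseudocount of 0.1, median-of-ratios scaling and the replicate block called the same 17 genes. With no mean-variance trend 14 were called in HCC4006, where IFIT1, IFIT3, IFITM3 and ISG15 lost their call and IFI44L gained 1. In ABC1 the count was 0; it was 7 in the model of all 8 libraries and 8 with the replicate block, and 0 with each library left out. IFIT2 is among the 7 and among the 8, although in ABC1 it reached the minimum only through vehicle. A minimum on the higher group mean, chosen after seeing the data, left the counts at 17 and 0. With vehicle, 24 to 29 genes were called higher in HCC4006 with 1 library left out.

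Calls over all genes moved more. In ABC1 they went from 152 to 0 with no minimum, 251 with median-of-ratios scaling, 33 with no mean-variance trend, 2348 with the replicate block, 1567 in the model of all 8 libraries and 18 to 69 with 1 library left out. In HCC4006 they went from 2591 to 370 with no minimum and 634 to 1028 with 1 library left out. For the difference between the lines they went from 87 to 20 with the pseudocount of 0.1, 403 with no minimum, 3 with the replicate block and 4 to 41 with 1 library left out. With vehicle they went from 9305 to between 5572 and 9005 with 1 library left out.

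Libraries of vehicle and DEM share replicate numbers, but the labels give them no shared origin. For that reason the numbers were not taken to pair samples. Deviations of same-numbered libraries correlated across 13682 genes at 0.257 in ABC1 and 0.0538 in HCC4006, which does not settle whether they shared an origin. Depth limits genes near 0, such as MX1 and OAS2 in ABC1.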

Other observations

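Of the 32 further interferon-stimulated genes, 27 were tested between the lines with vehicle, of which 22 were higher in HCC4006 and 4 lower, beside 37.3% and 30.4% of all genes tested. The minimum was reached only through HCC4006 by 8 of them (IFI16, PARP10, MX2, APOL1, CMPK2, RSAD2, SAMD9L and UBA7), which had to differ and are given without a test. Of the other 19, 14 were called higher and 4 lower, with a median log2 difference of 1.44. IFI16, a nuclear DNA sensor, read 0.0269 and 0.0738 FPKM in ABC1 and 84.7 and 83.2 in HCC4006 (log2 difference 6.34), and with DEM it read 80.3 and 87.7 in HCC4006, so it did not separate from vehicle. PARP10 (4.67), MX2 (4.30) and APOL1 (3.85) also differed widely. The 4 genes lower in HCC4006 were EPSTI1, PNPT1, ZNFX1 and PLSCR1. EPSTI1 reached the minimum only through ABC1, so it too had to differ and is given without a test. It read 8.28 and 8.34 FPKM in ABC1 and 0.458 and 0.568 in HCC4006 (-2.62). In ABC1 with DEM it read 2.87 and 4.54 (-1.01, SE 0.21, adjusted p = 0.0802), which was not called.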
